A study of Mus musculus with 48 samples.

Results

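A set of 33 genes of glycolysis and of the response to low oxygen was followed in 4 kinds of sorted mouse lymph node cells. It was chosen by name, gene by gene, from the 55487 rows of the 2 deposited count tables, and all 33 had a row in both. The set holds 18 glycolytic enzymes, 4 glucose and lactate transporters, 3 enzymes that regulate glycolytic flux and 8 genes of the hypoxia response. RNA of 48 libraries was measured by polyA sequencing, 3 libraries for each of 16 groups. The cells were labelled medullary sinus macrophages (MSM), subcapsular sinus macrophages (SSM), migratory dendritic cells (mDC) and resident dendritic cells (rDC). Each kind came from tumor-draining nodes (TDLN) or from nodes labelled lymph node (LN), of mice given cisplatin, a platinum drug that crosslinks DNA, or PBS, a buffered saline. All mice were wild type, and the design text speaks of tumor-bearing mice. It also names tumors and the drug PLX4720, which no group analysed here has, and how the cells were gated is not given. The labels give no age, strain or dose, nor do they say whether each library stands for another animal or how many animals were pooled. The p-values therefore measure only the spread between these libraries, which may be technical.

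Glycolysis breaks glucose down to pyruvate in the cytosol and yields ATP without oxygen, and lactate dehydrogenase then turns pyruvate into lactate. When oxygen falls, the prolyl hydroxylases that mark the HIF alpha subunits for destruction slow down, and HIF raises the transcription of most glycolytic enzymes, of glucose and lactate transporters and of genes for mitophagy and vessel growth. Macrophages and dendritic cells also raise glycolysis when activated, in part through HIF and mTOR. RNA levels of these enzymes are not a measure of flux through the pathway. In bulk RNA fewer cells that express a gene and less RNA per cell cannot be told apart.

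Macrophage libraries held 6456456 to 10434248 counts. The 3 mDC TDLN PBS and the 3 rDC LN PBS libraries held 10733509 to 15481059 counts, and the other 18 dendritic cell libraries 2002713 to 3842097 counts. Lists of cell type markers gave summed levels in CPM, counts scaled to the size of the library. Over the 9 migratory dendritic cell markers, the sum was 28597 to 34266 CPM in mDC libraries, against 1229.8 to 1877 CPM in rDC libraries, and both kinds expressed resident dendritic cell markers (1509.6 to 1761 CPM in mDC, 1684 to 2653 CPM in rDC). The rDC libraries also carried B cell markers (1898 to 4013 CPM, against 145 to 421 CPM in mDC) and plasmacytoid dendritic cell markers (1774 to 3581 CPM, against 93.5 to 139.7 CPM in mDC). Among the macrophages, 4 libraries went against their labels. MSM TDLN cisplatin 1 and MSM LN PBS 2 resembled the SSM libraries of their node and treatment (r = 0.9899 to 0.993 over genes), and SSM TDLN cisplatin 3 and SSM LN PBS 2 resembled the MSM libraries in the same way. With libraries of their own group these 4 had r = 0.694 to 0.751, while other macrophage libraries of 1 group had r = 0.983 to 0.996. They are called the crossed libraries here, and macrophage results are given with and without them. The MSM LN cisplatin libraries, which were alike, held few macrophage markers, with 1991 to 2075 CPM over 14 genes, against 9026 to 24600.5 CPM in the other macrophage groups. Siglec1 was at 0.31, 0 and 0 CPM there, and migratory dendritic cell markers (5277 to 5553 CPM) and B cell markers (4995 to 5072 CPM) were higher than in any other macrophage library. The 8 medullary macrophage markers, such as Marco, ran higher under the SSM label. They summed to 57.7 to 63.3 CPM in MSM LN cisplatin, against 3679 to 3764 CPM in SSM LN cisplatin, and to 547 to 577 CPM in MSM TDLN PBS, against 583 to 603 CPM in SSM TDLN PBS. With the crossed libraries left out, the sums were 589.9 and 621 CPM in MSM TDLN cisplatin, against 9378 and 9658 CPM in SSM TDLN cisplatin, and 663 and 668 CPM in MSM LN PBS, against 10672 and 10679.6 CPM in SSM LN PBS, so the macrophage names are used as labels only.

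Promoters are shown for the genes that passed the test in the most comparisons, Eno3 (17 of 29 comparisons), Eno1 and Hk3 (15 each, as for Gapdh, which is not shown), and for Pfkfb3, which was added after its values were seen. Each window runs from 250 bases before to 50 bases after a RefSeq transcript start in GRCm38.p6, and is printed 5′ to 3′ on the strand of the gene. Capitals mark the core of the HIF binding motif, ACGTG or GCGTG, on either strand (CACGT or CACGC on the strand shown). The Eno3 window is chr11:70656926-70657225 (plus strand), the first of the Eno1 windows chr4:150236458-150236757 (plus) and the Hk3 window chr13:55021336-55021635 (minus). Of the Pfkfb3 windows, the upstream one is chr2:11553880-11554179 and a downstream one chr2:11502041-11502340 (both minus).
Eno3: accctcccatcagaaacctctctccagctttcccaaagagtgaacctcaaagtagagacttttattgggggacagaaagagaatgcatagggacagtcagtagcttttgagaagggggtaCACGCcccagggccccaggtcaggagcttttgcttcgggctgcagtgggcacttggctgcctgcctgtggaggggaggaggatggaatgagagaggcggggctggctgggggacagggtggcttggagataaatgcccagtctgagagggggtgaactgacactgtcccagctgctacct
Eno1: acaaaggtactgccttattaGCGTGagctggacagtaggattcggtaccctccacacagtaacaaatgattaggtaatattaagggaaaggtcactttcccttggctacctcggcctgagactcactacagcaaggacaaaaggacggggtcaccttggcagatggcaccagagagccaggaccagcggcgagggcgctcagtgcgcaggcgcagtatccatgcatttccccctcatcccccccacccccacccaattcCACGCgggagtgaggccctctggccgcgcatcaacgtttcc
Hk3: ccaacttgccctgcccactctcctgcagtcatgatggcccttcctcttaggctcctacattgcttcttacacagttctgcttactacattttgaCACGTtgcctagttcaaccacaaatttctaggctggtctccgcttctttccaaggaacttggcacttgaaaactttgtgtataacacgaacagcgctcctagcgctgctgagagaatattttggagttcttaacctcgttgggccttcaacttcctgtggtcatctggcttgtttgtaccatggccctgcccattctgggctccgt
Pfkfb3 upstream: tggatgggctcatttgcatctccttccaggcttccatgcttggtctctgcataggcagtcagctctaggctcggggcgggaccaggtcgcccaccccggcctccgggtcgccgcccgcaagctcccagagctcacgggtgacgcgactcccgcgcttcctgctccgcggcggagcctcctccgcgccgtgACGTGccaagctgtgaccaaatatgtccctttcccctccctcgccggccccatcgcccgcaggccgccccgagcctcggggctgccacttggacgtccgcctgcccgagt
Pfkfb3 downstream: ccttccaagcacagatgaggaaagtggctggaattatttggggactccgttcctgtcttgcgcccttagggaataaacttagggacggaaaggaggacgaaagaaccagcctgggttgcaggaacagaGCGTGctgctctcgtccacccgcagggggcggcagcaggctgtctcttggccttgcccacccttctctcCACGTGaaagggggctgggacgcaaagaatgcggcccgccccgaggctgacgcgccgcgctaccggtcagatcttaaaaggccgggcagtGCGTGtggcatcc
The Eno3, Hk3 and upstream Pfkfb3 windows each held 1 match, the Eno1 window 2 and the downstream Pfkfb3 window 4, of which 2 overlap in the palindrome CACGTG. A match was found in 37 of the 45 windows of the set (82.2%), against 14380 of 32851 windows of all genes (43.8%). By gene, 29 of the 31 members with a window had at least 1 match (93.5%), against 12628 of 27025 genes (46.7%). Genes can have several windows, and a match describes the letters only. The set was chosen by name and holds genes of the hypoxia response. All genes with a window served for comparison, whether expressed or not, and base composition was not matched. The difference in shares was not tested. Bnip3l and Slc2a3 have no entry in the table.

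The levels of the members relative to each other were read from the deposited TPM, which corrects for transcript length. In mDC the most abundant member per length was Pfkfb3, the kinase that makes the fructose bisphosphate which activates phosphofructokinase, with 1344 to 1844 TPM over 12 libraries. Eno3, the beta enolase best known from muscle, came next with 572 to 783 TPM, followed by Gapdh, the glyceraldehyde phosphate dehydrogenase of the middle of the pathway (331 to 544 TPM), Pkm (279 to 365 TPM), Aldoa (249 to 346 TPM) and Eno1, the alpha enolase of most tissues (226 to 312 TPM). In rDC, ordered by the median, Ldha had 554 to 781 TPM, Eno1 475 to 578 TPM, Gapdh 360.0 to 761 TPM and Pkm 341 to 506 TPM, while Pfkfb3 had 29.3 to 58.8 TPM and Eno3 16.6 to 30.9 TPM. Neighbours in these orders overlapped between libraries, except that Pfkfb3 and Eno3 stood apart from each other and from the rest in mDC. Eno3 made up 66.0 to 76.2% of the summed TPM of Eno1 and Eno3 in mDC and 3.37 to 5.95% in rDC. Hk1 made up 75.4 to 88.6% of hexokinase TPM (Hk1, Hk2 and Hk3 together) in mDC and 55.5 to 69.9% in rDC, and Hk3 4.98 to 12.7% in mDC and 17.0 to 32.4% in rDC. For the lactate dehydrogenases, the share of Ldhb was 4.02 to 21.1% in mDC and 6.10 to 14.1% in rDC, which overlapped. The least abundant members were Egln3 (0.16 to 1.46 TPM in mDC, 0.63 to 2.83 TPM in rDC) and Pfkm (0.39 to 2.47 TPM in mDC, 2.08 to 8.86 TPM in rDC).

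**Figure D1:**
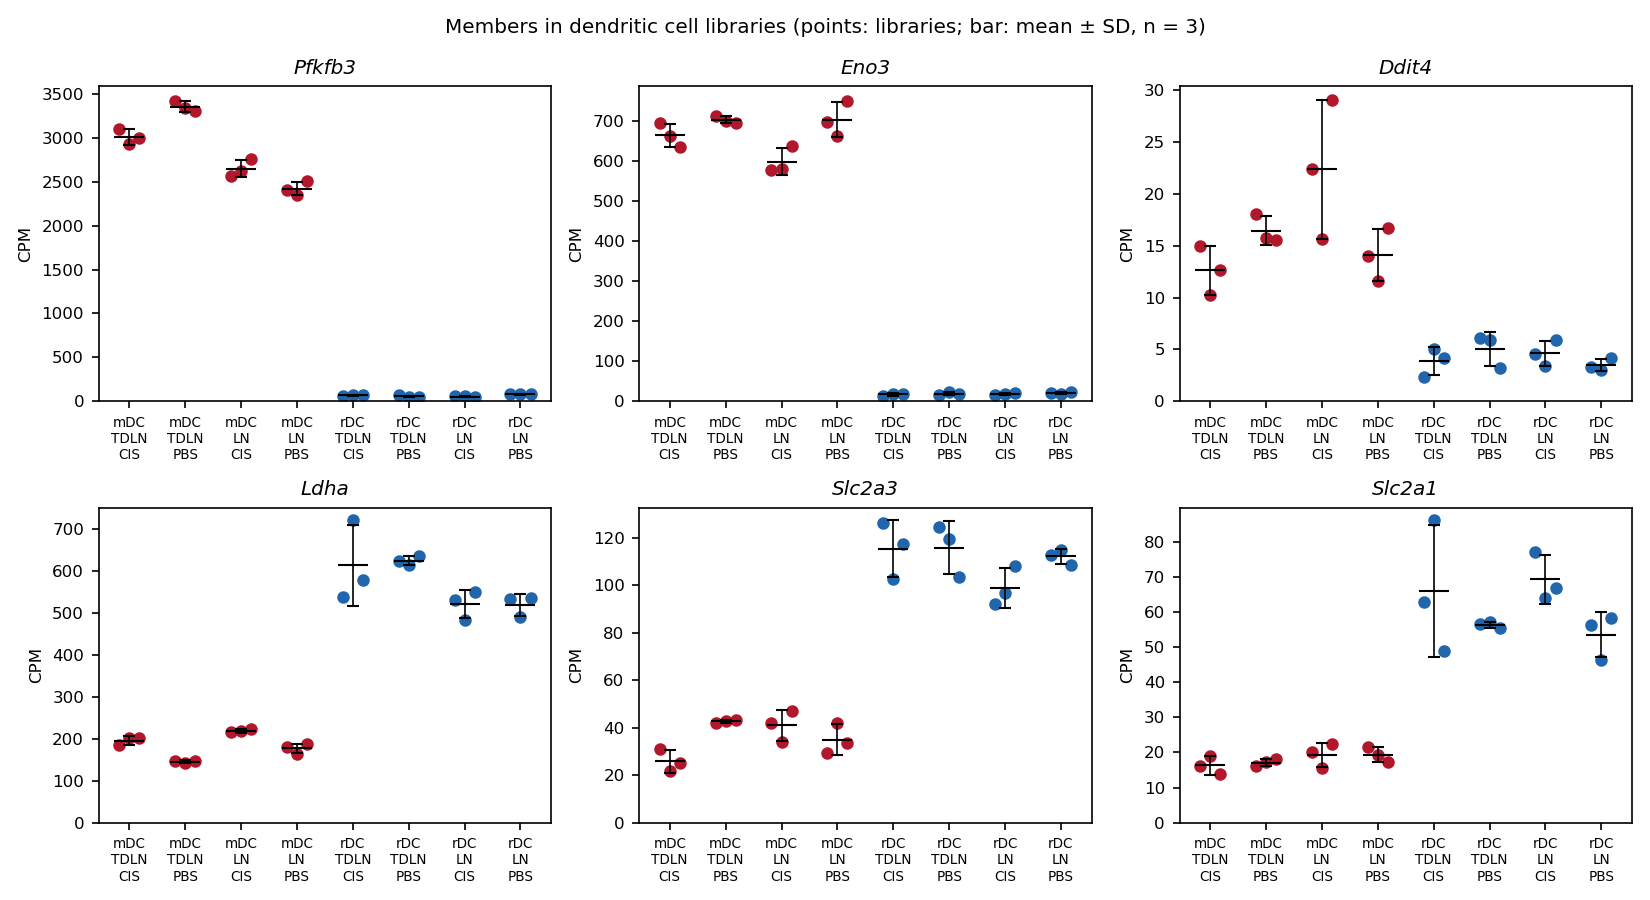
Levels of 6 members in each dendritic cell library, in CPM scaled over the 24 libraries of the dendritic cell table, for the 4 mDC groups and then the 4 rDC groups, with a bar at each group mean. Pfkfb3 lay between 2354 and 3424 CPM in mDC and between 44.5 and 83.5 CPM in rDC, and Ldha was lower in every mDC library (143 to 223 CPM) than in any rDC library (483 to 722 CPM).

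The first comparison set mDC against rDC within each node and treatment and as a mean over the 4 conditions. In that mean 9 members were higher and 20 lower in mDC, and 4 did not pass (Gapdh, Pkm, Slc16a3 and Vegfa). Of all genes tested 74.4% passed (35.6% higher and 38.9% lower), so a call alone says little in this comparison. The median log2 fold change of the members was -0.40, against -0.058 over all genes. The 2 largest differences were increases. Pfkfb3 had a lowest of 2354, a median of 2843 and a highest of 3424 CPM in 12 mDC libraries, against a lowest of 44.5, a median of 64.7 and a highest of 83.5 CPM in 12 rDC libraries (log2 fold change 5.48 ± 0.046 SE, adjusted p = 7.67e-36). Eno3 had a lowest of 577, a median of 678 and a highest of 749.6 CPM in mDC, against a lowest of 13.6, a median of 19.0 and a highest of 23.5 CPM in rDC (log2 fold change 5.16 ± 0.057, adjusted p = 2.96e-33). No mDC library overlapped an rDC library for either gene. Ddit4, whose product REDD1 restrains mTOR, was also higher in every mDC library, with a lowest of 10.3, a median of 15.6 and a highest of 29.1 CPM, against a lowest of 2.36, a median of 4.16 and a highest of 6.06 CPM in rDC (log2 fold change 1.90 ± 0.13, adjusted p = 1.59e-13). Smaller increases passed for the mitophagy receptors Bnip3 (0.75 ± 0.11, adjusted p = 4.28e-07) and Bnip3l (0.22 ± 0.041, adjusted p = 2.13e-05), for triose phosphate isomerase Tpi1 (0.32 ± 0.047, adjusted p = 5.32e-07), for Hk1 (0.20 ± 0.055, adjusted p = 0.00148), the hexokinase bound to mitochondria in most cells, and for Aldoa and Pgk1 by 0.17 and 0.13 on the log2 scale. Single libraries of these 6 genes overlapped between mDC and rDC. The rDC libraries also held more T cell markers (343 to 1055 CPM, against 64.4 to 115 CPM in mDC). Lymphatic endothelium and stroma (204 to 269 against 20.9 to 40.6 CPM), mast cell and basophil (164 to 265 against 31.0 to 60.8 CPM) and sinus macrophage markers (2417 to 3601 against 820 to 1353 CPM) were higher too. In each condition 7 to 8 of 13 lists differed by at least 2 times. The part of these lists, and of the B cell and plasmacytoid dendritic cell markers given above, in any difference of mDC from rDC was not tested.

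Most other enzymes and both glucose transporters were lower in mDC. Slc2a1, the glucose transporter GLUT1, had a lowest of 13.8, a median of 17.6 and a highest of 22.4 CPM in mDC, against a lowest of 46.3, a median of 57.7 and a highest of 86.1 CPM in rDC (log2 fold change -1.76 ± 0.085, adjusted p = 1.63e-17). Slc2a3, which encodes GLUT3, had a lowest of 21.6, a median of 38.0 and a highest of 47.0 CPM in mDC, against a lowest of 92.1, a median of 111 and a highest of 126 CPM in rDC (-1.64 ± 0.061, adjusted p = 3.01e-20). Every mDC library lay below every rDC library for both. Ldha, the lactate dehydrogenase subunit that HIF induces, had a lowest of 143, a median of 186 and a highest of 223 CPM in mDC, against a lowest of 483, a median of 544 and a highest of 722 CPM in rDC (-1.64 ± 0.042, adjusted p = 1.88e-24), and Ldhb, the heart-type subunit, differed by -1.49 ± 0.093 (adjusted p = 8.51e-15). Neither lactate dehydrogenase overlapped between the cells. Pdk1, the kinase that switches off pyruvate dehydrogenase, was lower in mDC too (-1.28 ± 0.083, adjusted p = 2.31e-14). Among enzymes of the upper pathway, Hk3 (-1.73 ± 0.093, adjusted p = 2.38e-16), Hk2 (-1.14 ± 0.081, adjusted p = 2.01e-13) and the aldolase Aldoc (-1.97 ± 0.13, adjusted p = 6.06e-14) were lower in mDC without overlap between libraries. The platelet-type phosphofructokinase Pfkp (-0.86 ± 0.036, adjusted p = 5.5e-19) was lower without overlap too, and so was Eno1 (-0.62 ± 0.037, adjusted p = 3.98e-15), which ran against Eno3. The phosphoglycerate mutase Pgam1, Gpi1, Pfkl, Pfkm, Pfkfb4, Slc16a1, P4ha1, Egln3, Ankrd37 and Hif1a were also lower, between -2.15 for Ankrd37, a HIF target with ankyrin repeats, and -0.19 for Hif1a, the oxygen-sensitive HIF subunit itself.

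**Figure D2:**
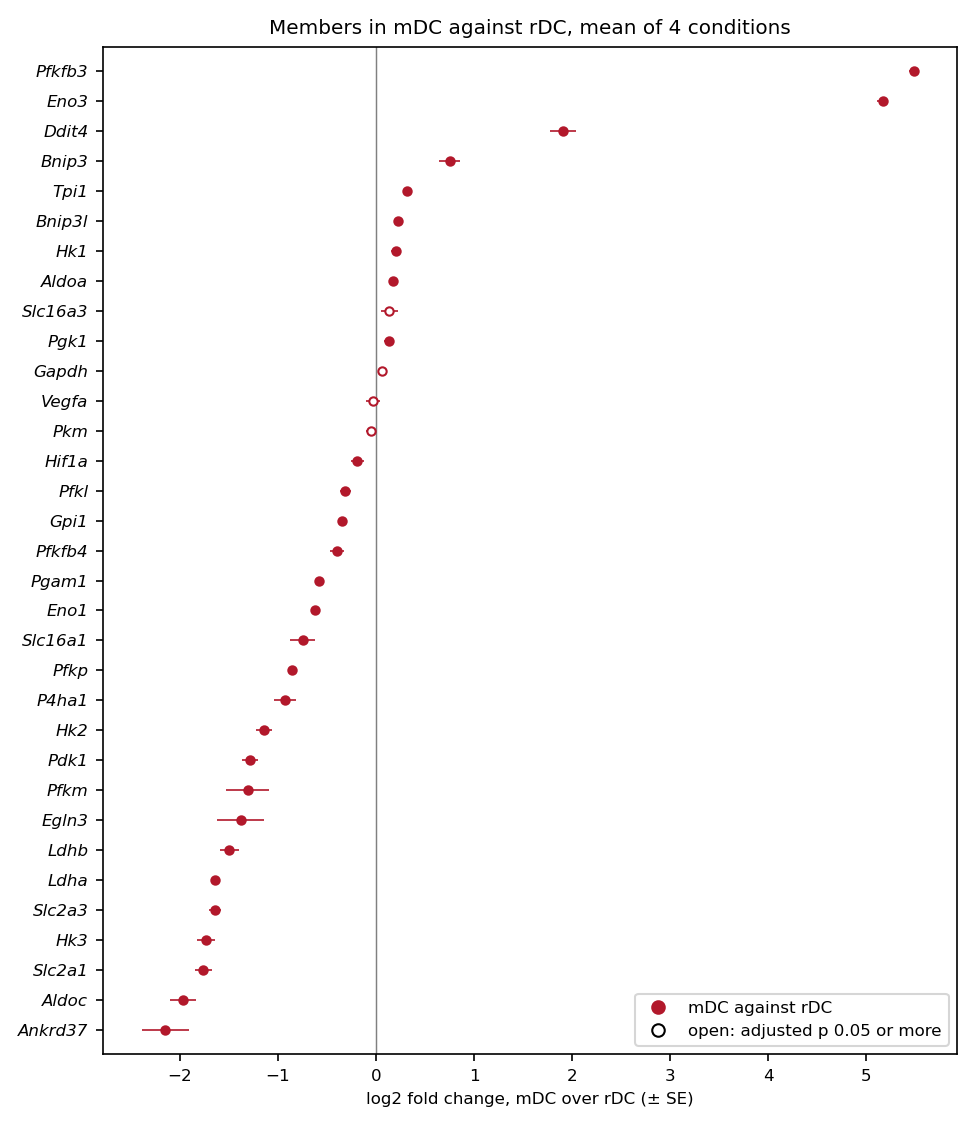
Log2 fold change of mDC over rDC, as the mean of the 4 conditions with SE, for all 33 members ordered by size, with open points for the 4 that did not pass an adjusted p of 0.05. Pfkfb3 (5.48) and Eno3 (5.16) stand apart on the right, and 20 filled points lie below 0, down to Ankrd37 at -2.15.

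The difference of mDC from rDC was not the same in every condition for Gapdh and Vegfa. Gapdh had 179, 172 and 181 CPM in mDC, against 269.9, 255 and 290.0 CPM in rDC of the TDLN PBS group, and was lower in mDC (-0.62 ± 0.087, adjusted p = 4.15e-07). In LN PBS it had 287, 291 and 290.4 CPM in mDC, against 209, 185 and 206 CPM in rDC, and was higher in mDC (0.53 ± 0.089, adjusted p = 6.68e-06). It was also higher in mDC of LN cisplatin (0.33 ± 0.091, adjusted p = 0.00311), and in each of these the libraries did not overlap. The deep libraries are those of mDC in TDLN PBS and of rDC in LN PBS, and Gapdh was lower on the deep side each time. Depth cannot be told apart from the group there. Vegfa, the vessel growth factor, had 52.1, 50.2 and 55.4 CPM in mDC, against 26.0, 28.0 and 30.7 CPM in rDC of LN cisplatin (0.89 ± 0.14, adjusted p = 1.81e-06), while it was lower in mDC in LN PBS (-0.57 ± 0.14, adjusted p = 0.00084) and TDLN cisplatin (-0.68 ± 0.15, adjusted p = 0.000225). The 4 conditions gave 5 members higher and 20 lower in TDLN cisplatin (56.1% of all genes passed), 6 and 21 in TDLN PBS (72.4%), 11 and 15 in LN cisplatin (54.9%), and 7 and 18 in LN PBS (66.6%). With no filter on low counts and scaling factors taken anew from the unfiltered genes, called unfiltered scaling below, the LN PBS split was 3 higher and 23 lower, all genes moved by -0.43, and Tpi1 and Aldoa, called higher in LN PBS, changed sign. With no filter but the factors kept, the split was 7 higher and 18 lower, as in the fit reported.

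Other genes of the pathways were tested alongside. Of 25 tested of the 32 further glycolysis genes listed, 9 were higher and 8 lower in mDC in the mean of the 4 conditions, where, as given above, 74.4% of all genes passed. They include another enolase, Eno2, which averaged 305 ± 38.6 CPM in mDC, against 1.84 ± 0.774 CPM in rDC (SD, n = 12 each, log2 fold change 7.39 ± 0.077, adjusted p = 1.01e-33). Adpgk, a glucokinase that uses ADP, was lower with 24.5 ± 4.70 CPM in mDC, against 184 ± 29.3 CPM in rDC (log2 fold change -2.91 ± 0.052, adjusted p = 3.43e-28). Of 34 tested of the 39 further hypoxia genes, 13 were higher and 11 lower, among them Vhl, the ubiquitin ligase subunit that removes HIF alpha, with 561 ± 77.0 CPM in mDC, against 56.5 ± 8.45 CPM in rDC (log2 fold change 3.31 ± 0.054, adjusted p = 2.59e-29). Of 19 TCA cycle genes 2 were higher and 11 lower in mDC, led by fumarase Fh1 (log2 fold change -1.40 ± 0.048, adjusted p = 3.21e-21), and of 7 pentose phosphate genes 0 were higher and 4 lower, led by transaldolase Taldo1 (log2 fold change -0.99 ± 0.037, adjusted p = 4.04e-20).

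In mDC of the TDLN, cisplatin was set against PBS with CPM scaled over the 12 mDC libraries, as for all comparisons of treatment or node below. With cisplatin 7 of 30 members tested were higher and 3 lower, while 27.3% of all genes passed (14.1% higher and 13.2% lower). All 7 that rose are glycolytic enzymes, which are 18 of the 33 members (Pfkm, an enzyme too, was not tested here). However, the split was 5 higher and 6 lower when scaled over the 24 libraries of the table, which moved all genes by -0.12 on the log2 scale. It was 2 higher and 10 lower with unfiltered scaling, which moved them by -0.28. With no filter and the factors kept, it was 7 higher and 3 lower. Gapdh had 264, 246 and 248 CPM with cisplatin, against 151, 144 and 151 CPM with PBS (log2 fold change 0.76 ± 0.055, adjusted p = 7.04e-10). Ldha had 168, 187 and 183 CPM with cisplatin, against 124, 119.6 and 124 CPM with PBS (log2 fold change 0.55 ± 0.062, adjusted p = 7.28e-07). In both genes all 3 cisplatin libraries lay above all 3 PBS libraries. Pfkp (99.4, 98.8 and 107 CPM with cisplatin, 74.8, 68.9 and 74.9 CPM with PBS, 0.48 ± 0.073, adjusted p = 3.38e-05), the glucose phosphate isomerase Gpi1 (0.42 ± 0.062, adjusted p = 2.61e-05), Eno1 (0.36 ± 0.055, adjusted p = 3.48e-05), Aldoa (0.28 ± 0.061, adjusted p = 0.00164) and the pyruvate kinase Pkm (0.21 ± 0.063, adjusted p = 0.0147) followed. Slc2a3 was lower, with 28.3, 19.96 and 22.8 CPM with cisplatin, against 35.5, 36.0 and 36.1 CPM with PBS (log2 fold change -0.60 ± 0.13, adjusted p = 0.00196), as were Bnip3 (17.96, 17.6 and 22.8 CPM with cisplatin, 24.5, 29.8 and 33.1 CPM with PBS, -0.59 ± 0.17, adjusted p = 0.013) and Bnip3l (-0.24 ± 0.067, adjusted p = 0.0105). None of these 3 overlapped between treatments.

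The PBS libraries of that comparison are among the deep ones. With them thinned to a depth like that of the other libraries the split was 7 higher and 4 lower. Pkm was at -0.062 with unfiltered scaling, and Pfkp and Gpi1 missed the threshold there. Gapdh, Ldha, Slc2a3, Bnip3 and Bnip3l passed under each of these settings. Pkm lost its call without mDC TDLN cisplatin 1, mDC TDLN PBS 2 or mDC TDLN PBS 3 (adjusted p = 0.0577 to 0.102). Bnip3 lost its call without mDC TDLN cisplatin 1, mDC TDLN cisplatin 2 or mDC TDLN PBS 3 (adjusted p = 0.0583 to 0.0654). Bnip3l lost its call without mDC TDLN cisplatin 1 (adjusted p = 0.0602). B cell markers summed to 401 to 421 CPM with cisplatin, against 258 to 273 CPM with PBS, and their part in the result was not tested.

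In mDC of the LN, 3 of 30 members were higher and 2 lower with cisplatin, while 11% of all genes passed (6.15% higher and 4.82% lower). Vegfa had 47.7, 45.8 and 50.3 CPM with cisplatin, against 24.8, 20.8 and 24.9 CPM with PBS (log2 fold change 1.01 ± 0.13, adjusted p = 5.4e-06). All cisplatin libraries had more than all PBS libraries. Pfkp (110.0, 121 and 127 CPM with cisplatin, 96.3, 84.4 and 92.0 CPM with PBS, 0.38 ± 0.083, adjusted p = 0.00346) and Ldha (0.26 ± 0.069, adjusted p = 0.0131) were higher in this node too. Eno3 was lower, with 528, 529 and 578 CPM with cisplatin, against 664, 607 and 701 CPM with PBS (log2 fold change -0.27 ± 0.057, adjusted p = 0.00214). Gapdh was lower by a smaller amount, with 224, 241 and 246 CPM with cisplatin, against 274, 267 and 271 CPM with PBS (-0.20 ± 0.06, adjusted p = 0.0349). Ldha lost its call without mDC LN PBS 2 (adjusted p = 0.0546). Gapdh lost its call without mDC LN cisplatin 1, mDC LN cisplatin 2, mDC LN PBS 1 or mDC LN PBS 3 (adjusted p = 0.0625 to 0.192). The split was 4 higher and 1 lower when scaled over the 24 libraries, where Gapdh missed the threshold, and 4 higher and 1 lower with unfiltered scaling (3 higher and 1 lower with no filter and the factors kept). B cell markers were at 303 to 334 CPM with cisplatin, against 145 to 168 CPM with PBS, sinus macrophage markers at 1302 to 1353 CPM with cisplatin, against 894 to 949 CPM with PBS, and neutrophil markers at 20.6 to 29.1 CPM with cisplatin, against 2.06 to 2.60 CPM with PBS. Their part in the result was not tested.

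The difference of the cisplatin effect between nodes was itself tested. In mDC 6 members had a higher effect in the TDLN and 2 a lower one, while 15.6% of all genes passed (8.43% higher and 7.17% lower). The 3 largest were Vegfa (log2 difference -1.24 ± 0.17, adjusted p = 2.69e-05), Gapdh (0.96 ± 0.081, adjusted p = 1.82e-08) and Slc2a3 (-0.81 ± 0.20, adjusted p = 0.00869). Gapdh thus rose with cisplatin in the TDLN and fell in the LN, where its call was lost in 4 of the fits without 1 library. Its level in TDLN PBS, the deep group, was the lowest of the 4 mDC groups. With the deep libraries thinned, 4 members had a higher effect in the TDLN and 2 a lower one. The other 5 with a higher effect in the TDLN were Gpi1, Pgk1, Aldoa, Eno3 and Ldha (0.29 to 0.59). Under scaling over 24 libraries, which moved this difference by -0.16 for all genes, the split was 2 higher and 5 lower, and with unfiltered scaling (-0.32) it was 1 higher and 9 lower. With no filter and the factors kept, 5 higher and 3 lower were called.

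Between nodes of mice given PBS, 1 of 30 members was higher and 14 were lower in mDC of the TDLN. Of the 14, 13 are glycolytic enzymes, which are 18 of the 33 members (Pfkm, an enzyme too, was not tested here). However, the split was 5 higher and 8 lower when scaled over 24 libraries (all genes moved by 0.16) and 10 higher and 3 lower with unfiltered scaling (0.35). With no filter and the factors kept, it was 1 higher and 16 lower. In all, 29.1% of all genes passed (14.8% higher and 14.3% lower). The median of the members was -0.28, against 0.0088 over all genes. Gapdh had 151, 144 and 151 CPM in the TDLN, against 274, 267 and 271 CPM in the LN (log2 fold change -0.86 ± 0.056, adjusted p = 1.19e-10). Gpi1 had 111, 110.4 and 104 CPM in the TDLN, against 178, 167 and 162 CPM in the LN (log2 fold change -0.64 ± 0.063, adjusted p = 1.14e-07). For both, all TDLN libraries lay below all LN libraries. Aldoa (-0.53 ± 0.062, adjusted p = 1.11e-06), Ldha (-0.44 ± 0.065, adjusted p = 2.14e-05), Eno1 (-0.39 ± 0.056, adjusted p = 1.91e-05), Pfkp (-0.33 ± 0.078, adjusted p = 0.003), Hk3 (-0.77 ± 0.23, adjusted p = 0.0149) and Slc16a3, the lactate exporter MCT4 (-0.62 ± 0.18, adjusted p = 0.0108), were lower as well. Pfkfb3 was the 1 member that was higher, with 2890.1, 2800.1 and 2763 CPM in the TDLN, against 2301, 2157 and 2341 CPM in the LN (log2 fold change 0.31 ± 0.044, adjusted p = 1.47e-05). The TDLN PBS libraries are the deep ones here too. Thinned, the split was 1 higher and 10 lower. Pfkp changed sign with unfiltered scaling. Hk3 lost its call without mDC LN PBS 1 or mDC LN PBS 3 (adjusted p = 0.0702 to 0.119). Slc16a3 lost its call without mDC TDLN PBS 3 or mDC LN PBS 1 (adjusted p = 0.0616 to 0.264). B cell markers were at 258 to 273 CPM in the TDLN, against 145 to 168 CPM in the LN, and neutrophil markers at 0.323 to 0.465 CPM in the TDLN, against 2.06 to 2.60 CPM in the LN. Their part was not tested.

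After cisplatin 1 member was higher and 6 were lower in mDC of the TDLN than of the LN, while 14.8% of all genes passed (7.57% higher and 7.21% lower). Vegfa had 21.6, 24.4 and 20.4 CPM in the TDLN, against 47.7, 45.8 and 50.3 CPM in the LN (log2 fold change -1.11 ± 0.12, adjusted p = 5.89e-07). Slc2a3 (-0.65 ± 0.15, adjusted p = 0.0042), Ddit4 (-0.80 ± 0.22, adjusted p = 0.0129), Hk2 (-0.70 ± 0.23, adjusted p = 0.0443), Pkm (-0.25 ± 0.066, adjusted p = 0.0107) and Eno1 (-0.19 ± 0.058, adjusted p = 0.0255) were lower, and Pfkfb3 was again higher in the TDLN, with 2831, 2707 and 2734 CPM, against 2352, 2401 and 2499 CPM in the LN (0.19 ± 0.045, adjusted p = 0.00424). Ddit4 lost its call without mDC TDLN cisplatin 2 or mDC LN cisplatin 3 (adjusted p = 0.077 to 0.0836). Hk2 lost its call without mDC TDLN cisplatin 1, mDC TDLN cisplatin 2, mDC LN cisplatin 2 or mDC LN cisplatin 3 (adjusted p = 0.0982 to 0.185). Pkm lost its call without mDC TDLN cisplatin 2, mDC TDLN cisplatin 3 or mDC LN cisplatin 3 (adjusted p = 0.0504 to 0.0573). Eno1 lost its call without mDC TDLN cisplatin 2, mDC TDLN cisplatin 3, mDC LN cisplatin 1 or mDC LN cisplatin 3 (adjusted p = 0.053 to 0.143). The count of 7 fell to 4 without mDC TDLN cisplatin 2, and the split was 2 higher and 5 lower with unfiltered scaling. Sinus macrophage markers were at 899 to 976 CPM in the TDLN, against 1302 to 1353 CPM in the LN, neutrophil markers at 2.76 to 5.60 CPM in the TDLN, against 20.6 to 29.1 CPM in the LN, and B cell markers at 401 to 421 CPM in the TDLN, against 303 to 334 CPM in the LN. Their part was not tested. With either treatment all 3 TDLN libraries had more Pfkfb3 than all 3 LN libraries.

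In rDC of the TDLN no member passed for cisplatin against PBS in edgeR or in DESeq2, where 1.01% and 1.54% of all genes passed. An unadjusted p under 0.05 was found for 6 members, and the share of all genes at that threshold is not given. Without rDC TDLN cisplatin 2 the count was 1. In rDC of the LN, 1 member was higher and 6 lower with cisplatin, while 17.9% of all genes passed (10.7% higher and 7.17% lower). Hk3, the hexokinase of myeloid cells, had 28.5, 24.4 and 22.4 CPM with cisplatin, against 47.4, 39.9 and 48.9 CPM with PBS (log2 fold change -0.86 ± 0.15, adjusted p = 0.00114). Pfkfb3 had 69.4, 61.9 and 49.4 CPM with cisplatin, against 84.6, 82.7 and 90.3 CPM with PBS (log2 fold change -0.52 ± 0.12, adjusted p = 0.00715). Neither overlapped between treatments. Pfkp (-0.35 ± 0.072, adjusted p = 0.00331), the phosphoglycerate kinase Pgk1 (-0.38 ± 0.085, adjusted p = 0.00568), Hk2 (-0.49 ± 0.12, adjusted p = 0.0114) and Aldoc (-0.64 ± 0.19, adjusted p = 0.0273) were lower and Slc16a3 (0.47 ± 0.15, adjusted p = 0.0388) higher. Slc16a3 lost its call without any 1 of the libraries compared (adjusted p = 0.0757 to 0.144). Aldoc lost its call without rDC LN cisplatin 2, rDC LN cisplatin 3, rDC LN PBS 1 or rDC LN PBS 2 (adjusted p = 0.054 to 0.119). Hk2 lost its call without rDC LN cisplatin 3 (adjusted p = 0.0512). The count was 4 without rDC LN cisplatin 3. Scaling over the 24 libraries gave 0 higher and 6 lower, and unfiltered scaling, which moved all genes by -0.30, gave 0 higher and 16 lower. With no filter and the factors kept, 2 higher and 6 lower were called. The PBS libraries are the deep ones among rDC, and with them thinned the split was 0 higher and 6 lower. NK cell markers were at 87.7 to 95.8 CPM with cisplatin, against 6.71 to 12.6 CPM with PBS, and T cell markers at 567 to 595 CPM with cisplatin, against 343 to 406 CPM with PBS. Resident dendritic cell markers were at 1684 to 1750.2 CPM with cisplatin, against 2239 to 2316 CPM with PBS, and the part of none of these was tested.

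The cisplatin effect in rDC differed between nodes for 4 members, all with a higher effect in the TDLN, while 5.31% of all genes passed (2.62% higher and 2.7% lower). They were Hk3 (log2 difference 0.97 ± 0.23, adjusted p = 0.0153), Vegfa (0.89 ± 0.22, adjusted p = 0.0236), Pfkfb3 (0.75 ± 0.18, adjusted p = 0.017) and Pfkp (0.39 ± 0.10, adjusted p = 0.0384). For Vegfa this difference ran opposite to that in mDC. Hk3 and Pfkfb3 each lost its call without rDC TDLN PBS 3 (adjusted p = 0.0541 to 0.0604). Vegfa lost its call without rDC TDLN PBS 1 or rDC LN PBS 1 (adjusted p = 0.0538 to 0.0778). The count of 4 was 2 without rDC LN PBS 1 or rDC TDLN PBS 1 and 1 without rDC TDLN PBS 3, and with the deep libraries thinned 3 higher and 0 lower were called.

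Ldhb, Gapdh and Pfkm were higher in rDC of the TDLN than of the LN with either treatment. Ldhb had 49.2, 67.0 and 54.3 CPM in the TDLN, against 29.4, 30.6 and 23.7 CPM in the LN after cisplatin (log2 fold change 1.03 ± 0.16, adjusted p = 0.000308). With PBS it had 52.1, 51.8 and 67.1 CPM in the TDLN, against 28.9, 23.9 and 24.01 CPM in the LN (log2 fold change 1.15 ± 0.14, adjusted p = 2.47e-05). No TDLN library overlapped an LN library. After cisplatin 4 members were higher and 1 lower in the TDLN, while 14.8% of all genes passed (7.83% higher and 6.97% lower), and with PBS 6 were higher and 4 lower, while 27% of all genes passed (14.9% higher and 12.1% lower). Gapdh was higher in the TDLN with cisplatin (0.41 ± 0.11, adjusted p = 0.0226) and with PBS (0.50 ± 0.11, adjusted p = 0.0035), and Pfkm, the muscle-type phosphofructokinase, with cisplatin (1.11 ± 0.33, adjusted p = 0.0311) and with PBS (0.81 ± 0.27, adjusted p = 0.0353). Pfkfb4, a relative of Pfkfb3, was higher after cisplatin, with 65.2, 63.3 and 61.9 CPM in the TDLN, against 47.5, 48.9 and 40.7 CPM in the LN (0.48 ± 0.10, adjusted p = 0.00502). With PBS, Hk3 (-0.54 ± 0.15, adjusted p = 0.0143), Pfkfb3 (-0.43 ± 0.12, adjusted p = 0.0149), Vegfa (-0.45 ± 0.15, adjusted p = 0.036) and Ankrd37 (-1.23 ± 0.34, adjusted p = 0.0138) were lower in the TDLN. Gapdh lost its call without rDC LN cisplatin 2 or rDC LN cisplatin 3 (adjusted p = 0.0624 to 0.0802). Pfkm lost its call without rDC TDLN cisplatin 2, rDC LN cisplatin 1, rDC LN cisplatin 2 or rDC LN cisplatin 3 (adjusted p = 0.0525 to 0.203). Pfkm lost its call without any 1 library but rDC TDLN PBS 2 (adjusted p = 0.0621 to 0.16). Hk3 lost its call without rDC TDLN PBS 1, rDC TDLN PBS 3 or rDC LN PBS 3 (adjusted p = 0.0546 to 0.0735). Pfkfb3 lost its call without rDC TDLN PBS 2, rDC TDLN PBS 3 or rDC LN PBS 3 (adjusted p = 0.0525 to 0.0688). Vegfa lost its call without rDC TDLN PBS 1, rDC TDLN PBS 2, rDC LN PBS 1 or rDC LN PBS 2 (adjusted p = 0.078 to 0.158). Ankrd37 lost its call without rDC TDLN PBS 2 (adjusted p = 0.0666). Slc16a1 passed as well after cisplatin, and lost its call without rDC TDLN cisplatin 2, rDC LN cisplatin 2 or rDC LN cisplatin 3 (adjusted p = 0.15 to 0.191). Ldha and Gpi1 passed as well with PBS, and lost their calls in 4 and 5 of the fits without 1 library (adjusted p = 0.0585 to 0.105). The count after cisplatin was 2 without rDC LN cisplatin 2 or rDC LN cisplatin 3 and 8 without rDC TDLN cisplatin 1 or rDC TDLN cisplatin 3, and the count with PBS was 4 to 6 without any 1 library. Scaling over the 24 libraries gave 5 higher and 0 lower after cisplatin (DESeq2's size factors 4 higher and 0 lower) and 5 higher and 6 lower with PBS, and unfiltered scaling, which moved all genes by -0.26, gave 1 higher and 7 lower with PBS. With no filter and the factors kept, 6 higher and 5 lower were called with PBS, and with the deep LN PBS libraries thinned, 4 higher and 4 lower. B cell markers were at 1898 to 2167 CPM in the TDLN, against 3389 to 4013 CPM in the LN, and plasmacytoid dendritic cell markers at 3403 to 3581 CPM in the TDLN, against 1774 to 2145 CPM in the LN. NK cell markers were at 27.6 to 33.7 CPM in the TDLN, against 87.7 to 95.8 CPM in the LN after cisplatin. With PBS they ran the other way, at 24.5 to 28.7 CPM in the TDLN, against 6.71 to 12.6 CPM in the LN. T cell markers were at 1016 to 1055 CPM in the TDLN, against 343 to 406 CPM in the LN with PBS. Their part in these results was not tested.

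The macrophage tables had another profile. TPM of the macrophages were deposited with their decimals dropped, so they are scores close to TPM. On that scale the highest members in every group were the same 5 enzymes, Eno1 (745 to 1657 over 24 libraries), Ldha (591 to 1440), Gapdh (561 to 1284), Pkm and Aldoa. Eno3 made up at most 7.34% of the summed Eno1 and Eno3 score, in MSM LN cisplatin, and as little as 1.11% in MSM TDLN PBS. Hk3 was listed at 0 in MSM LN cisplatin. Hk2 made up 39.3 to 42.3% of hexokinase score in MSM TDLN PBS and 19.7 to 24.8% in SSM TDLN PBS.

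Several members followed the crossed libraries. Vegfa had 25.0, 262 and 272 CPM in the MSM libraries, against 23.8, 22.1 and 271 CPM in the SSM libraries of TDLN cisplatin, scaled over the 24 macrophage libraries, and 156, 39.4 and 172 CPM in the MSM libraries, against 37.2, 172 and 37.5 CPM in the SSM libraries of LN PBS. In each group the crossed library had the level of the other label. Hk2, Slc16a3 and Slc2a3 followed the same pattern. With all libraries no member passed between MSM and SSM in TDLN cisplatin or in LN PBS, and 0% of all genes did in edgeR. The members with an unadjusted p under 0.05 numbered 0 in TDLN cisplatin and 1 in LN PBS. DESeq2 called no member in either, and 0% and 0.0102% of all genes. Without MSM LN PBS 2 the LN PBS count was 1.

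**Figure D3:**
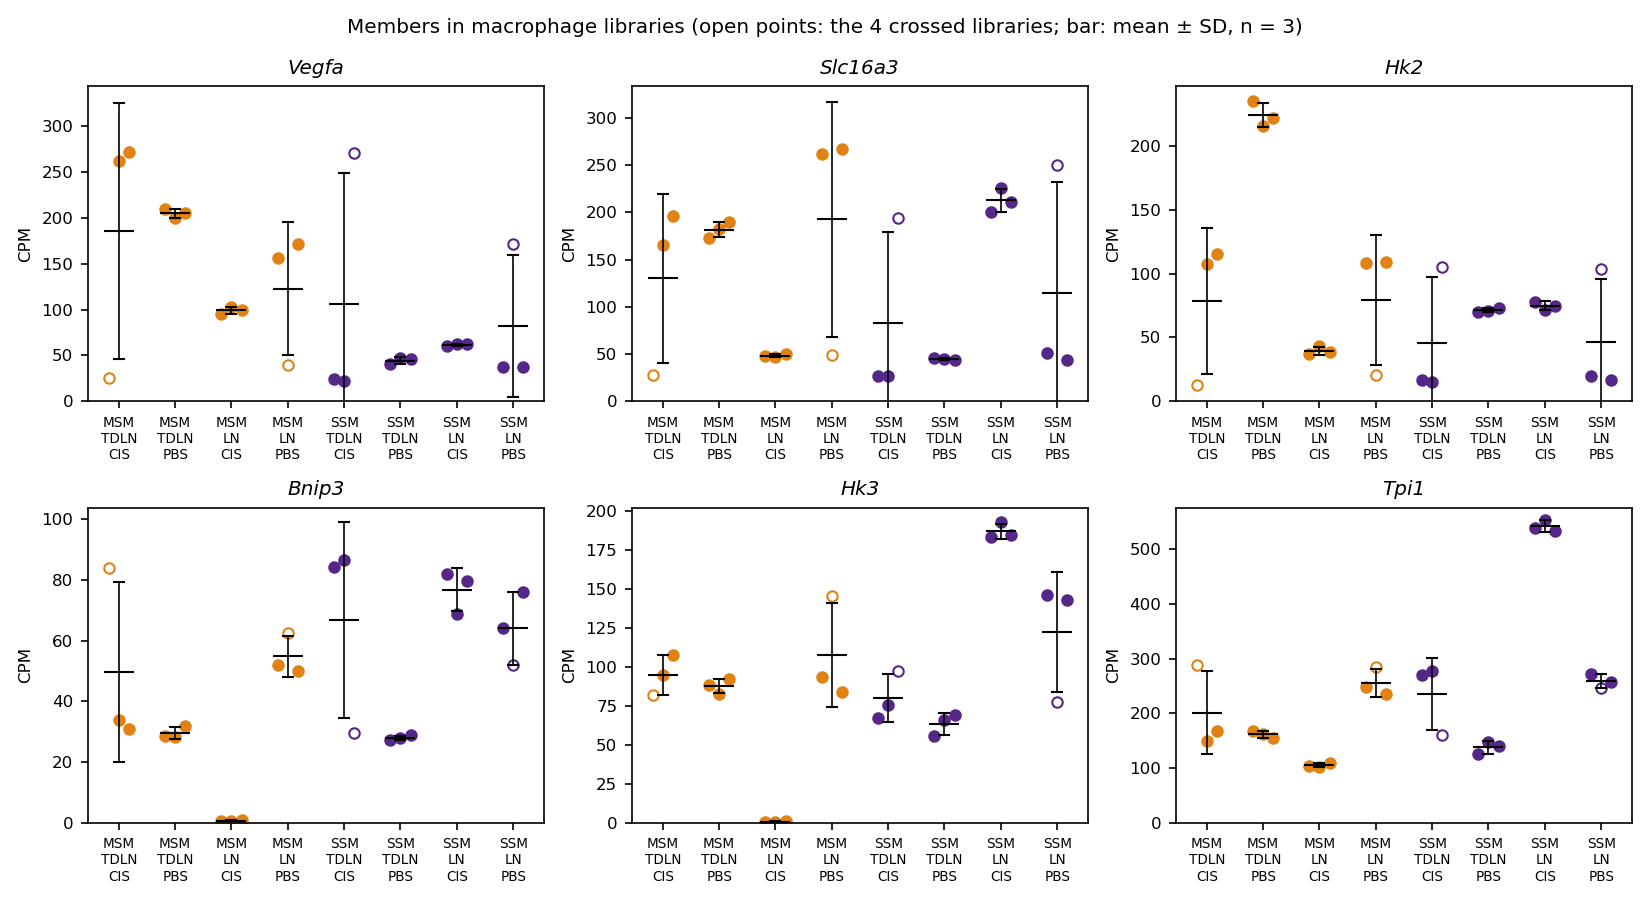
Levels of 6 members in each macrophage library, in CPM scaled over the 24 libraries of the macrophage table, for the 4 MSM groups and then the 4 SSM groups, with open points for the 4 crossed libraries. For Vegfa, Slc16a3 and Hk2 the open points lie with the groups of the other label, and Hk3 and Bnip3 are below 1 CPM in MSM LN cisplatin.

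With the crossed libraries left out, 18 members were higher and 10 lower in MSM than in SSM in TDLN cisplatin, where 63.3% of all genes passed, and again 18 and 10 in LN PBS (62%). In TDLN cisplatin the largest increases were Vegfa 3.54 ± 0.082 (adjusted p = 1.77e-22), Hk2 2.78 ± 0.094 (adjusted p = 4.4e-19), Slc16a3 2.76 ± 0.091 (adjusted p = 2.42e-19) and Egln3, the HIF prolyl hydroxylase that HIF itself induces, 2.67 ± 0.16 (adjusted p = 4.74e-14). In LN PBS the leading ones were Hk2 2.53 ± 0.092 (adjusted p = 2.43e-18), Slc16a3 2.44 ± 0.084 (adjusted p = 8.46e-19), Slc2a3 2.36 ± 0.085 (adjusted p = 1.88e-18) and Vegfa 2.09 ± 0.077 (adjusted p = 3.56e-18). The lower ones included Pfkfb4 -1.79 ± 0.10 (adjusted p = 2.28e-14) and Bnip3 -1.40 ± 0.10 (adjusted p = 7.72e-12) in TDLN cisplatin and Pdk1 -1.28 ± 0.086 (adjusted p = 1.23e-12) and Pfkfb3 -0.95 ± 0.11 (adjusted p = 5.95e-08) in LN PBS. These groups then hold 2 libraries each, which were chosen as not crossed after the data were seen. In TDLN cisplatin, marker lists moved as well. Medullary macrophage markers (589.9 to 621 CPM in MSM, 9378 to 9658 CPM in SSM), B cell markers (655 to 687 CPM in MSM, 4509 to 4632 CPM in SSM), neutrophil markers (7700.4 to 7855 CPM in MSM, 764 to 829 CPM in SSM) and plasmacytoid dendritic cell markers (87.6 to 110.2 CPM in MSM, 590.2 to 613 CPM in SSM) differed by at least 5 times with the crossed libraries left out. Markers of the T cell, NK cell and lymphatic endothelium and stroma lists differed by at least 2 times, and the part of these lists in the label difference was not tested. In LN PBS they did too. Medullary macrophage markers (663 to 668 CPM in MSM, 10672 to 10679.6 CPM in SSM), B cell markers (478 to 487 CPM in MSM, 3455 to 3505 CPM in SSM), neutrophil markers (5982 to 6198 CPM in MSM, 128 to 142 CPM in SSM), mast cell and basophil markers (134 to 135 CPM in MSM, 1041 to 1054 CPM in SSM) and melanocyte markers (313 to 314 CPM in MSM, 26.2 to 31.4 CPM in SSM) differed by at least 5 times with the crossed libraries left out. Markers of the migratory dendritic cell, T cell, NK cell, erythroid and platelet and plasmacytoid dendritic cell lists differed by at least 2 times, and the part of these lists in the label difference was not tested.

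TDLN PBS is the condition with both macrophage labels, no crossed library and macrophage markers in all libraries. There 9 members were higher and 6 lower in MSM than in SSM, while 40.8% of all genes passed (14.4% higher and 26.4% lower). Egln3 had 64.7, 68.4 and 60.1 CPM in MSM, against 10.7, 10.7 and 14.7 CPM in SSM (log2 fold change 2.42 ± 0.65, adjusted p = 0.00597). Slc2a3 had 187, 193 and 193 CPM in MSM, against 51.0, 43.3 and 52.5 CPM in SSM (log2 fold change 1.96 ± 0.59, adjusted p = 0.0118). Vegfa had 209.8, 200.2 and 205 CPM in MSM, against 40.2, 46.8 and 45.9 CPM in SSM, without overlap, but did not pass in the model that holds the crossed libraries (adjusted p = 0.0539), and did without them, at 2.20 ± 0.062 (adjusted p = 3.63e-20). P4ha1, a subunit of collagen prolyl hydroxylase (1.18 ± 0.28, adjusted p = 0.00256), Gpi1 (1.01 ± 0.18, adjusted p = 0.000195), Pgk1 (0.74 ± 0.10, adjusted p = 1.1e-05), Gapdh (0.69 ± 0.12, adjusted p = 0.000117), Pfkl, Aldoa and Eno1 were also higher in MSM. Pfkm was at 0 counts in the 3 MSM libraries and at 10.5, 10.96 and 12.7 CPM in SSM, at least 30.3-fold lower by a floor of 3 counts per library. Eno3 (-1.32 ± 0.19, adjusted p = 1.61e-05), Ddit4 (-1.18 ± 0.33, adjusted p = 0.00839) and Hif1a (-0.50 ± 0.14, adjusted p = 0.0077) were lower in MSM. Ankrd37, at 0 counts in MSM, was at least 5.06-fold lower, and Aldoc had 0.237, 0 and 0 CPM in MSM, against 4.01, 2.97 and 3.46 CPM in SSM (adjusted p = 9.23e-05). The split without the crossed libraries was 18 higher and 10 lower (67.1% of all genes, 28.1% higher and 39% lower). Neutrophil markers (10448 to 10808 CPM in MSM, 147 to 186 CPM in SSM) differed by at least 5 times. Sinus macrophage markers (24429.9 to 24600.5 CPM in MSM, 14116 to 14379 CPM in SSM) and B cell markers (464 to 481 CPM in MSM, 1256 to 1262 CPM in SSM) did not overlap either. Lymphatic endothelium and stroma markers differed by at least 2 times, and the part of these lists in the label difference was not tested.

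In LN cisplatin no member was higher and 19 were lower in MSM than in SSM, while 49.7% of all genes passed (20.7% higher and 29% lower). Tpi1 had 104, 102 and 109.7 CPM in MSM, against 539, 554 and 533 CPM in SSM (log2 fold change -2.36 ± 0.21, adjusted p = 4.52e-08), and Eno1 970.3, 890.1 and 954 CPM in MSM, against 2247, 2342 and 2314 CPM in SSM (log2 fold change -1.29 ± 0.095, adjusted p = 3.5e-09). Hk3 had 0.286, 0.368 and 0.855 CPM in MSM, against 184, 193 and 185 CPM in SSM (log2 fold change -8.48 ± 0.37, adjusted p = 3.22e-12), and Bnip3 (-6.88 ± 0.48, adjusted p = 1.99e-09), Egln3 (-4.26 ± 0.74, adjusted p = 0.000132) and Hif1a (-1.27 ± 0.14, adjusted p = 5.99e-07) were lower as well. All these members lay apart without overlap. The MSM group is the one with few macrophage markers. Sinus macrophage markers (1991 to 2075 CPM in MSM, 23254 to 23571 CPM in SSM), medullary macrophage markers (57.7 to 63.3 CPM in MSM, 3679 to 3764 CPM in SSM), migratory dendritic cell markers (5277 to 5553 CPM in MSM, 1034 to 1094 CPM in SSM), B cell markers (4995 to 5072 CPM in MSM, 329 to 339 CPM in SSM), NK cell markers (278 to 299.9 CPM in MSM, 16.2 to 19.2 CPM in SSM), mast cell and basophil markers (2154 to 2189 CPM in MSM, 36.3 to 41.0 CPM in SSM) and melanocyte markers (227 to 237 CPM in MSM, 1460.0 to 1529.7 CPM in SSM) differed by at least 5 times. Markers of the neutrophil and lymphatic endothelium and stroma lists differed by at least 2 times, and the part of these lists in the label difference was not tested. With DESeq2's size factors, which moved all genes by 0.14, the split was 1 higher and 16 lower, and without the crossed libraries 7 were higher and 24 lower (72.4% of all genes, 33.1% higher and 39.3% lower).

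In SSM of the LN 9 members were higher with cisplatin and none lower with all libraries in the fit, while 13.3% of all genes passed (5.85% higher and 7.42% lower), and the member median was 0.57, against -0.037 over all genes. DESeq2 called 11 members, and 21% of all genes. By unadjusted p, 16 members were under 0.05, a threshold for which the share of all genes is not given. Tpi1 had 528, 544 and 521 CPM with cisplatin, against 267, 247 and 254 CPM with PBS (log2 fold change 1.05 ± 0.18, adjusted p = 0.00624). Pgk1 had 349, 341 and 351 CPM with cisplatin, against 156, 189.5 and 161 CPM with PBS (log2 fold change 1.04 ± 0.11, adjusted p = 0.000781). Eno3 had 75.6, 77.7 and 69.8 CPM with cisplatin, against 31.6, 30.0 and 25.5 CPM with PBS (log2 fold change 1.36 ± 0.19, adjusted p = 0.00256). In these 3 genes all cisplatin libraries lay above all PBS libraries, the crossed PBS 2 included. Ldhb (56.8, 48.7 and 57.0 CPM with cisplatin, 14.4, 24.03 and 14.1 CPM with PBS, 1.63 ± 0.33, adjusted p = 0.0112), Pfkfb4 (1.48 ± 0.34, adjusted p = 0.0198), Eno1 (0.85 ± 0.12, adjusted p = 0.00217), Gapdh (0.74 ± 0.13, adjusted p = 0.00688), Pfkl (0.59 ± 0.12, adjusted p = 0.0127) and Hif1a (0.49 ± 0.13, adjusted p = 0.0327) rose as well. Pfkfb4 lost its call without any 1 library but SSM LN PBS 2 (adjusted p = 0.0606 to 0.0731). Pfkl lost its call without SSM LN cisplatin 3 or SSM LN PBS 3 (adjusted p = 0.0549 to 0.0594).

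When the crossed libraries were left out, 28 members were higher and 2 lower in the same comparison, where 60% of all genes passed (30.1% higher and 29.9% lower), and the member median was 0.76. Slc16a3 had 196, 222 and 207 CPM with cisplatin, against 49.7, 251 and 43.3 CPM with PBS, the second of which is the crossed library. Its log2 fold change was 0.86 ± 0.82 (adjusted p = 0.536) with all libraries and 2.19 ± 0.08 (adjusted p = 5.16e-13) without the crossed ones. Hk2 likewise was 0.66 ± 0.80 (adjusted p = 0.643) with them and 2.06 ± 0.091 (adjusted p = 6.04e-12) without. Slc2a3 1.18 ± 0.096 (adjusted p = 1.66e-08) and Pkm 1.11 ± 0.062 (adjusted p = 1.28e-10) passed without them too, and Ankrd37 -1.51 ± 0.25 (adjusted p = 7.38e-05) and Pfkm -0.56 ± 0.19 (adjusted p = 0.0182) were the 2 lower ones. With SSM LN PBS 2 alone left out, 15 passed. B cell markers (329 to 339 CPM with cisplatin, 3455 to 3505 CPM with PBS), mast cell and basophil markers (36.3 to 41.0 CPM with cisplatin, 1041 to 1054 CPM with PBS) and melanocyte markers (1460.0 to 1529.7 CPM with cisplatin, 26.2 to 31.4 CPM with PBS) differed by at least 5 times with the crossed libraries left out. Sinus macrophage markers (23254 to 23571 CPM with cisplatin, 15496 to 15601 CPM with PBS) and medullary macrophage markers (3679 to 3764 CPM with cisplatin, 10672 to 10679.6 CPM with PBS) did not overlap either. Markers of the lymphatic endothelium and stroma, erythroid and platelet and plasmacytoid dendritic cell lists differed by at least 2 times, and the part of these lists in the treatment difference was not tested.

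**Figure D4:**
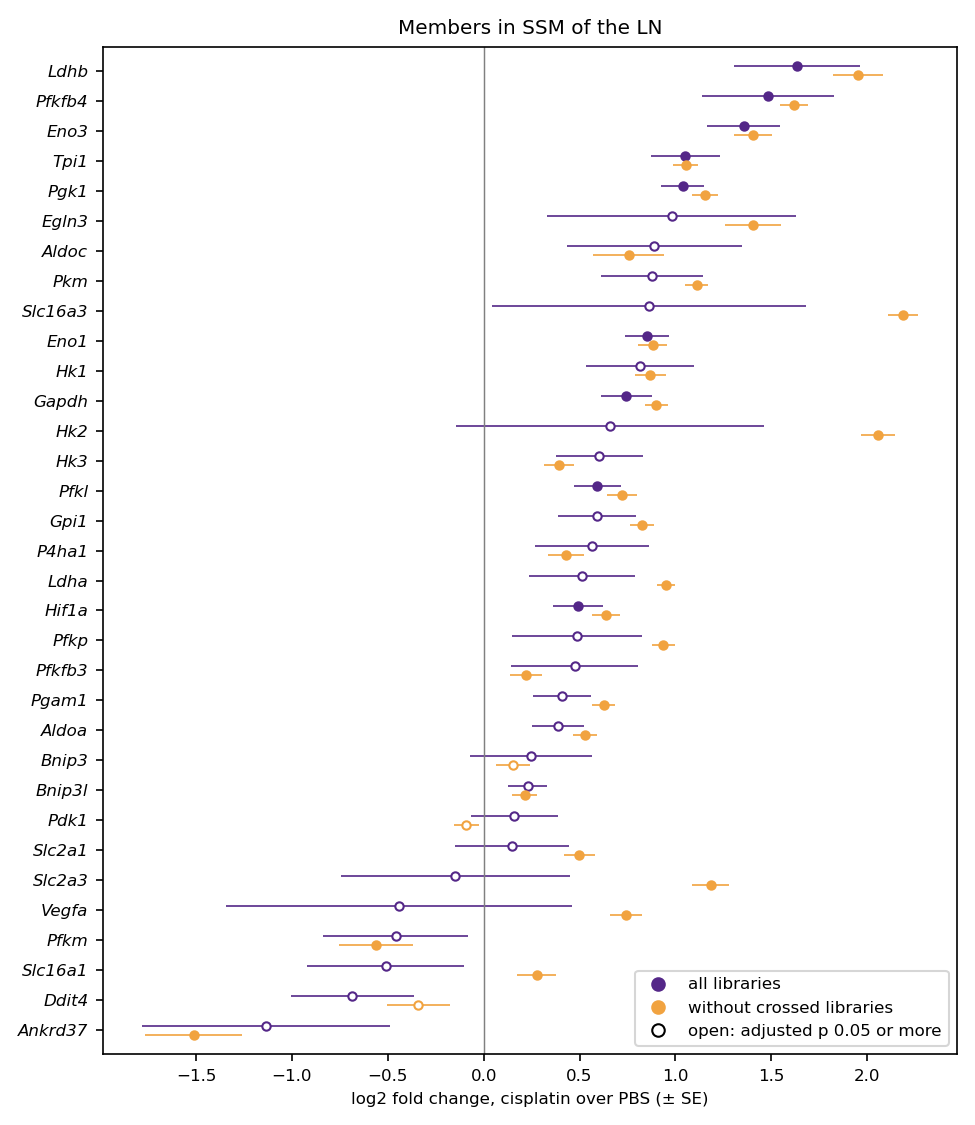
Log2 fold change of cisplatin over PBS in SSM of the LN with SE, for all 33 members, with all libraries and without the crossed ones. Tpi1 lies at 1.05 with all libraries and 1.05 without the crossed ones, while Slc16a3 lies at 0.86 and 2.19, and Vegfa changes sign (-0.44 and 0.74).

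In SSM of the TDLN, cisplatin gave 3 members higher and 5 lower, while 23% of all genes passed (13% higher and 9.95% lower). Pfkm was lower, with 3.67, 3.24 and 1.09 CPM with cisplatin, against 10.4, 10.8 and 12.6 CPM with PBS (log2 fold change -2.07 ± 0.40, adjusted p = 0.0062). Tpi1 was higher, with 265, 271 and 160.0 CPM with cisplatin, against 124, 145 and 139 CPM with PBS (log2 fold change 0.77 ± 0.18, adjusted p = 0.0135). Neither overlapped between treatments. Bnip3 (1.25 ± 0.32) and Pfkfb4 (1.40 ± 0.35) were higher and Ldhb (-1.18 ± 0.33), Pfkp (-1.13 ± 0.34), Ddit4 (-1.10 ± 0.32) and Hk1 (-0.95 ± 0.28) lower, with adjusted p from 0.0176 to 0.0383. The third cisplatin library is crossed, and Pfkfb4 had 82.6, 82.8 and 25.8 CPM with cisplatin, against 22.6, 23.7 and 26.2 CPM with PBS, so that library overlapped the PBS group. Pfkm alone kept its call whichever library was left out. The count of 8 was 1 without SSM TDLN cisplatin 1, SSM TDLN cisplatin 2 or SSM TDLN PBS 1, 2 without SSM TDLN PBS 2 or SSM TDLN PBS 3, and 14 without SSM TDLN cisplatin 3. Tpi1 lost its call without SSM TDLN cisplatin 1, SSM TDLN cisplatin 2 or SSM TDLN PBS 1 (adjusted p = 0.0515 to 0.0592). Bnip3, Pfkfb4, Ldhb, Pfkp, Ddit4 and Hk1 each lost its call without any 1 library but SSM TDLN cisplatin 3 (adjusted p = 0.0516 to 0.13). The split without the crossed libraries was 9 higher and 15 lower (71.1% of all genes, 34.6% higher and 36.5% lower), with Hk2 at -2.14 ± 0.094 (adjusted p = 3.06e-12). Medullary macrophage markers (9378 to 9658 CPM with cisplatin, 583 to 603 CPM with PBS), neutrophil markers (764 to 829 CPM with cisplatin, 147 to 186 CPM with PBS) and mast cell and basophil markers (1860.3 to 1914 CPM with cisplatin, 47.7 to 68.2 CPM with PBS) differed by at least 5 times with the crossed libraries left out. Markers of the migratory dendritic cell, B cell, T cell, NK cell, lymphatic endothelium and stroma, erythroid and platelet and plasmacytoid dendritic cell lists differed by at least 2 times, and the part of these lists in the treatment difference was not tested.

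The difference of the SSM cisplatin effect between nodes was called for 1 member as higher and 9 as lower in the TDLN, while 21.6% of all genes passed (13.4% higher and 8.21% lower). The 3 largest were Ankrd37 (log2 difference 2.98 ± 0.93, adjusted p = 0.0439), Ldhb (-2.82 ± 0.46, adjusted p = 0.00277) and Hk1 (-1.77 ± 0.40, adjusted p = 0.0122). All 9 lower ones are glycolytic enzymes, which are 18 of the 33 members. Without the crossed libraries 2 were higher and 24 lower (65.8% of all genes, 33.6% higher and 32.2% lower), and the count lay between 6 and 17 when single libraries were left out, with 17 without SSM TDLN cisplatin 3. Ankrd37 lost its call without any 1 library but SSM TDLN cisplatin 3 and SSM LN PBS 2 (adjusted p = 0.0739 to 0.107).

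Set against the LN, SSM of the TDLN after cisplatin had 15 members lower and none higher, while 17.4% of all genes passed (8.79% higher and 8.65% lower). Of the 15, 13 are glycolytic enzymes, which are 18 of the 33 members. The median of the members was -0.68, against 0.048 over all genes. Pgk1 had 166, 165 and 156 CPM in the TDLN, against 349, 341 and 351 CPM in the LN (log2 fold change -1.10 ± 0.11, adjusted p = 0.000303). Eno1 had 1145, 1026 and 1205 CPM in the TDLN, against 2200.1, 2299 and 2262 CPM in the LN (log2 fold change -1.002 ± 0.12, adjusted p = 0.000552). Hk3 had 65.9, 74.0 and 97.6 CPM in the TDLN, against 179.8, 189 and 181 CPM in the LN (log2 fold change -1.21 ± 0.23, adjusted p = 0.00624). No library overlapped in these. Tpi1 (-1.19 ± 0.18, adjusted p = 0.00215), Gapdh (-0.97 ± 0.13, adjusted p = 0.0013), Eno3 (-0.91 ± 0.19, adjusted p = 0.00977) and Pgam1 (-0.76 ± 0.15, adjusted p = 0.00811) were lower too. Aldoc, Ldhb, Pfkm and Pfkfb4 passed as well, and each lost its call in 3 to 4 of the fits without 1 library (adjusted p = 0.0569 to 0.12). This comparison and that of cisplatin in the LN share the SSM LN cisplatin libraries, so they are not independent. The count of 15 was 7 without SSM LN cisplatin 1 or SSM LN cisplatin 3, 9 without SSM LN cisplatin 2 and 24 without SSM TDLN cisplatin 3. Leaving out the crossed libraries gave 1 higher and 29 lower (61.9% of all genes, 30.1% higher and 31.8% lower), with Slc16a3 at -3.00 ± 0.086 (adjusted p = 1.56e-14). B cell markers (4509 to 4632 CPM in the TDLN, 329 to 339 CPM in the LN), neutrophil markers (764 to 829 CPM in the TDLN, 79.2 to 82.0 CPM in the LN), mast cell and basophil markers (1860.3 to 1914 CPM in the TDLN, 36.3 to 41.0 CPM in the LN) and melanocyte markers (22.9 to 25.8 CPM in the TDLN, 1460.0 to 1529.7 CPM in the LN) differed by at least 5 times with the crossed libraries left out. Sinus macrophage markers (13999 to 14207 CPM in the TDLN, 23254 to 23571 CPM in the LN) did not overlap either. Markers of the medullary macrophage, resident dendritic cell, T cell, lymphatic endothelium and stroma and plasmacytoid dendritic cell lists differed by at least 2 times, and the part of these lists in the node difference was not tested.

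With PBS, SSM of the TDLN had 2 members higher and 5 lower than SSM of the LN, while 19.7% of all genes passed (7.63% higher and 12% lower). Ldhb had 38.5, 49.7 and 49.3 CPM in the TDLN, against 14.4, 24.03 and 14.1 CPM in the LN (log2 fold change 1.39 ± 0.33, adjusted p = 0.0158), and Hk1 179, 208 and 183 CPM in the TDLN, against 90.7, 93.1 and 85.0 CPM in the LN (log2 fold change 1.09 ± 0.28, adjusted p = 0.0231). Tpi1 was lower, with 124, 145 and 139 CPM in the TDLN, against 267, 247 and 254 CPM in the LN (log2 fold change -0.91 ± 0.18, adjusted p = 0.0077). None of these overlapped. Bnip3, Pfkfb4, Hk3 and Gapdh were also lower, with log2 fold changes of -1.20, -1.17, -0.94 and -0.45. Of the 7, Tpi1 kept its call whichever library was left out. Ldhb lost its call without SSM TDLN PBS 2, SSM TDLN PBS 3, SSM LN PBS 1 or SSM LN PBS 3 (adjusted p = 0.0566 to 0.0622). Hk1, Bnip3 and Hk3 each lost its call without any 1 library but SSM LN PBS 2 (adjusted p = 0.0553 to 0.0958). Pfkfb4 lost its call without any 1 of the libraries compared (adjusted p = 0.0584 to 0.121). Gapdh lost its call without any 1 library but SSM LN PBS 3 (adjusted p = 0.0587 to 0.134). The count was 1 without SSM LN PBS 1, SSM TDLN PBS 2 or SSM TDLN PBS 3 and 2 without SSM LN PBS 3 or SSM TDLN PBS 1. Without the crossed libraries 12 were higher and 9 lower (67.8% of all genes, 34% higher and 33.8% lower). Medullary macrophage markers (583 to 603 CPM in the TDLN, 10672 to 10679.6 CPM in the LN) and mast cell and basophil markers (47.7 to 68.2 CPM in the TDLN, 1041 to 1054 CPM in the LN) differed by at least 5 times with the crossed libraries left out. T cell markers (2517 to 2629 CPM in the TDLN, 745 to 802 CPM in the LN) did not overlap either. Markers of the migratory dendritic cell, B cell, NK cell and plasmacytoid dendritic cell lists differed by at least 2 times, and the part of these lists in the node difference was not tested.

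In MSM of the TDLN 6 members were higher and 9 lower with cisplatin, while 37.1% of all genes passed (25.6% higher and 11.5% lower). Of the 9 lower ones, 8 are glycolytic enzymes, which are 18 of the 33 members. Eno3, Pfkm and Aldoc, among the 6 higher ones, are glycolytic enzymes too. Eno3 had 35.3, 46.7 and 57.6 CPM with cisplatin, against 13.6, 16.7 and 15.7 CPM with PBS (log2 fold change 1.60 ± 0.19, adjusted p = 0.000153). Pgk1 had 171, 149 and 147 CPM with cisplatin, against 275, 274 and 278 CPM with PBS (log2 fold change -0.82 ± 0.11, adjusted p = 0.000443). P4ha1 had 31.9, 24.2 and 17.0 CPM with cisplatin, against 59.3, 62.3 and 68.9 CPM with PBS (log2 fold change -1.38 ± 0.23, adjusted p = 0.00124). None of the 3 overlapped between treatments, with or without the crossed cisplatin 1. Gpi1 (-0.67 ± 0.16, adjusted p = 0.00961), Pfkl (-0.64 ± 0.11, adjusted p = 0.00153), Aldoa (-0.59 ± 0.12, adjusted p = 0.00383), Gapdh (-0.44 ± 0.13, adjusted p = 0.0212), Pkm (-0.66 ± 0.21, adjusted p = 0.0325), Hk1 (-0.67 ± 0.23, adjusted p = 0.0397) and Eno1 (-0.36 ± 0.10, adjusted p = 0.0204) were lower, and Pfkfb3 (1.16 ± 0.32, adjusted p = 0.0159) and Hif1a (0.48 ± 0.16, adjusted p = 0.0357) higher. Pfkm and Ankrd37, at 0 counts in all 3 PBS libraries, were at least 7.35-fold and 9.004-fold higher by a floor of 3 counts per library. Aldoc had 5.75, 2.15 and 1.14 CPM with cisplatin, against 0.238, 0 and 0 CPM with PBS (adjusted p = 0.00238). Gapdh lost its call without MSM TDLN cisplatin 2 or MSM TDLN PBS 1 (adjusted p = 0.0506 to 0.0597). Pkm and Hk1 each lost its call without MSM TDLN cisplatin 2, MSM TDLN PBS 1, MSM TDLN PBS 2 or MSM TDLN PBS 3 (adjusted p = 0.0545 to 0.0803). Pfkfb3 and Hif1a each lost its call without any 1 library but MSM TDLN cisplatin 1 (adjusted p = 0.0508 to 0.185). The count of 15 was 9 without MSM TDLN cisplatin 2. Leaving out the crossed libraries gave 13 higher and 16 lower (69% of all genes, 41.6% higher and 27.4% lower), with Hk2 at -0.99 ± 0.069 (adjusted p = 5.69e-10) and Ldha at -0.49 ± 0.044 (adjusted p = 1.84e-08). Mast cell and basophil markers (3410.0 to 3411 CPM with cisplatin, 48.6 to 58.3 CPM with PBS) differed by at least 5 times with the crossed libraries left out. Sinus macrophage markers (9026 to 9283 CPM with cisplatin, 24429.9 to 24600.5 CPM with PBS) and neutrophil markers (7700.4 to 7855 CPM with cisplatin, 10448 to 10808 CPM with PBS) did not overlap either. Migratory dendritic cell markers differed by at least 2 times, and the part of these lists in the treatment difference was not tested.

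In MSM of the LN, where the cisplatin libraries hold few macrophage markers, 4 members were higher and 11 lower with cisplatin, while 43.4% of all genes passed (16.6% higher and 26.8% lower). Hk3 had 0.291, 0.372 and 0.87 CPM with cisplatin, against 95.2, 148 and 86.1 CPM with PBS (log2 fold change -7.68 ± 0.36, adjusted p = 5.43e-07). Bnip3 had 0.437, 0.621 and 0.87 CPM with cisplatin, against 53.1, 63.2 and 51.1 CPM with PBS (log2 fold change -6.39 ± 0.46, adjusted p = 7.74e-06). Pfkm was at 0 counts with cisplatin, against 5.81, 11.5 and 8.19 CPM with PBS, at least 21.6-fold lower. The groups did not overlap in these. Tpi1 (-1.28 ± 0.21, adjusted p = 0.00105) and Hif1a (-0.90 ± 0.16, adjusted p = 0.0015) were lower, and P4ha1 (1.40 ± 0.23, adjusted p = 0.000999) and Eno3 (0.80 ± 0.18, adjusted p = 0.00596) higher. Aldoc, Slc16a3 and Pfkl passed as well. Aldoc and Slc16a3 each lost its call without any 1 library but MSM LN PBS 2 (adjusted p = 0.0963 to 0.121). Pfkl lost its call without MSM LN cisplatin 3 (adjusted p = 0.0519). Sinus macrophage markers (1991 to 2075 CPM with cisplatin, 14705 to 15066 CPM with PBS), medullary macrophage markers (57.7 to 63.3 CPM with cisplatin, 663 to 668 CPM with PBS), migratory dendritic cell markers (5277 to 5553 CPM with cisplatin, 752 to 784 CPM with PBS), B cell markers (4995 to 5072 CPM with cisplatin, 478 to 487 CPM with PBS), NK cell markers (278 to 299.9 CPM with cisplatin, 36.9 to 38.2 CPM with PBS), neutrophil markers (14.9 to 17.7 CPM with cisplatin, 5982 to 6198 CPM with PBS) and mast cell and basophil markers (2154 to 2189 CPM with cisplatin, 134 to 135 CPM with PBS) differed by at least 5 times with the crossed libraries left out. Markers of the lymphatic endothelium and stroma and plasmacytoid dendritic cell lists differed by at least 2 times, and the part of these lists in the treatment difference was not tested. Without the crossed libraries 9 were higher and 22 lower (74% of all genes, 33.4% higher and 40.7% lower). The node difference of the MSM cisplatin effect rests on the same libraries. It was called for 12 members as higher and 4 as lower in the TDLN, while 40.7% of all genes passed (31.1% higher and 9.64% lower), led by Hk3 (log2 difference 7.81 ± 0.43, adjusted p = 3.33e-06), Bnip3 (7.15 ± 0.57, adjusted p = 1.28e-05) and Ankrd37, for which a group at 0 counts leaves no fitted size (adjusted p = 0.00944). All genes moved by -0.13 under DESeq2's size factors, which gave 10 higher and 4 lower, and without the crossed libraries 18 were higher and 7 lower (65.1% of all genes, 43% higher and 22.1% lower).

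Between nodes, MSM of the TDLN with PBS had 8 members higher and 8 lower than MSM of the LN, while 38.2% of all genes passed (11.6% higher and 26.6% lower). Pfkl, the liver-type phosphofructokinase, had 234, 222 and 235 CPM in the TDLN, against 141, 127 and 144 CPM in the LN (log2 fold change 0.75 ± 0.11, adjusted p = 0.000648). Hk1 had 214, 205 and 195 CPM in the TDLN, against 88.8, 97.7 and 93.2 CPM in the LN (log2 fold change 1.13 ± 0.23, adjusted p = 0.00347). Egln3 (2.00 ± 0.55, adjusted p = 0.0168), P4ha1 (1.16 ± 0.23, adjusted p = 0.00315), Gpi1 (0.67 ± 0.16, adjusted p = 0.00943) and Pgk1 (0.60 ± 0.11, adjusted p = 0.00265) were higher too. Eno3 was lower, with 13.6, 16.7 and 15.7 CPM in the TDLN, against 27.2, 33.6 and 28.0 CPM in the LN (log2 fold change -0.95 ± 0.19, adjusted p = 0.00307), as were Hif1a (-0.85 ± 0.16, adjusted p = 0.00233), the lactate transporter MCT1 gene Slc16a1 (-1.76 ± 0.44, adjusted p = 0.01) and Ddit4 (-1.32 ± 0.35, adjusted p = 0.0146). In each of these the groups did not overlap. Egln3 lost its call without MSM LN PBS 1 (adjusted p = 0.0502). Ddit4 lost its call without MSM TDLN PBS 1 or MSM TDLN PBS 2 (adjusted p = 0.0555 to 0.077). Pkm, Tpi1 and Aldoa passed as well. Pkm lost its call without any 1 library but MSM LN PBS 1, and Tpi1 without any 1 but MSM LN PBS 3 (adjusted p = 0.0515 to 0.128). Aldoa lost its call without MSM TDLN PBS 1 (adjusted p = 0.051). Melanocyte markers (28.4 to 31.9 CPM in the TDLN, 313 to 314 CPM in the LN) differed by at least 5 times with the crossed libraries left out. Sinus macrophage markers (24429.9 to 24600.5 CPM in the TDLN, 14705 to 15066 CPM in the LN) and neutrophil markers (10448 to 10808 CPM in the TDLN, 5982 to 6198 CPM in the LN) did not overlap either. Markers of the mast cell and basophil, lymphatic endothelium and stroma and erythroid and platelet lists differed by at least 2 times, and the part of these lists in the node difference was not tested. After cisplatin 9 members were higher and 4 lower in the TDLN, while 43.3% of all genes passed (26.7% higher and 16.6% lower), against the LN group with few macrophage markers. Medullary macrophage markers (589.9 to 621 CPM in the TDLN, 57.7 to 63.3 CPM in the LN), B cell markers (655 to 687 CPM in the TDLN, 4995 to 5072 CPM in the LN), NK cell markers (34.7 to 42.6 CPM in the TDLN, 278 to 299.9 CPM in the LN), neutrophil markers (7700.4 to 7855 CPM in the TDLN, 14.9 to 17.7 CPM in the LN) and melanocyte markers (17.1 to 22.6 CPM in the TDLN, 227 to 237 CPM in the LN) differed by at least 5 times with the crossed libraries left out. Sinus macrophage markers (9026 to 9283 CPM in the TDLN, 1991 to 2075 CPM in the LN) did not overlap either. Markers of the migratory dendritic cell, lymphatic endothelium and stroma, erythroid and platelet and plasmacytoid dendritic cell lists differed by at least 2 times, and the part of these lists in the node difference was not tested. Hk3 (7.496 ± 0.36, adjusted p = 7.3e-07), Bnip3 (6.25 ± 0.46, adjusted p = 8.72e-06) and Egln3 (4.38 ± 0.65, adjusted p = 0.000546) were higher in the TDLN, and Aldoc (-3.07 ± 0.65, adjusted p = 0.00415) and P4ha1 (-1.62 ± 0.23, adjusted p = 0.000425) lower. Pfkfb3, Hif1a, Pgk1 and Pfkl passed as well, and each lost its call in 3 to 5 of the fits without 1 library (adjusted p = 0.0539 to 0.136). The count of 13 was 20 without MSM TDLN cisplatin 1. Unfiltered scaling gave 9 higher and 2 lower after cisplatin, as did no filter with the factors kept. Without the crossed libraries 13 were higher and 13 lower with PBS (69.7% of all genes, 29% higher and 40.7% lower), and 19 higher and 9 lower after cisplatin (74.4%).

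Across all 29 comparisons, which share libraries, each of the 33 members passed in at least 5. The share of all genes that passed ran from 0% (MSM against SSM in TDLN cisplatin and in LN PBS) to 74.4% (mDC against rDC, mean of the 4 conditions). No such tally was made for other genes, so the numbers do not set the members apart. Eno3 passed in 17, Eno1, Gapdh and Hk3 in 15, and Pdk1, Slc16a3 and Slc2a1 in 5. In mDC alone Pfkm, Egln3 and Ankrd37 had too few counts to be tested, which left 30 members.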

How the data were processed

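Polyadenylated RNA of sorted cells was sequenced from libraries made with the TruSeq Stranded mRNA kit, per the labels' protocols. STAR, RSEM 1.3.0, DESeq2 1.38.3 and the build GRCm38 stand in the submitters' processing notes, and the strand setting of the counting is not given in the sources used here. For each table of 24 libraries the authors deposited expected counts per gene, which are estimates and were rounded to whole numbers here. They also deposited TPM for the dendritic cells, with decimals. For the macrophages the authors deposited TPM with the decimals dropped, used here as a score and only for levels between genes. In the dendritic cell table, columns headed Tumor were read as TDLN and columns headed WT as LN, by elimination, and 24 of 24 columns of each table had their best match in the TPM or score column of the same name.

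The counts were fitted with edgeR 4.0.16 in R 4.3.3 (limma 3.58.1) by the quasi-likelihood test, with filterByExpr and TMM scaling, over the 12 libraries of 1 kind of cell for treatment and node and over the 24 libraries of a table for kinds of cell. Adjusted p-values are Benjamini-Hochberg over all genes tested (12519 in mDC to 19671 over both macrophage kinds), called below 0.05, and ± after a log2 fold change is its SE. In the mDC table a fit over 12 libraries tested 30 of the 33 members. CPM of the members and of the related pathway genes are TMM-scaled as in the same fits. CPM of the cell type markers are scaled to the total counts of each library, without TMM. The biological coefficient of variation was 0.418 in MSM and 0.403 in SSM, with the crossed libraries in, and 0.0625 in mDC and 0.105 in rDC. Members named in a comparison of treatment, node or kind of cell passed the test with a mean of at least 4 CPM, up to 8 per direction, and 3 for node differences. Others that are named were chosen after their values were seen. Not every member that met the rule is named, and those left out include some that lost their call without single libraries. The members, the lists and the crossed libraries were chosen with earlier results of these data known, so no count over them is independent evidence.

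The labels state no pairing of replicate numbers, and the libraries were fitted as unpaired. Of 24 comparisons, 0 had every same-number correlation over 0.1 (r = -0.974 to 0.962). Both extremes lay in MSM against SSM, in groups that hold crossed libraries. The check therefore cannot show that the libraries were unpaired. No 2 libraries of a group agreed within counting noise. Exons of 13 members overlap those of another gene (12 on the opposite strand, 3 on the same strand), and Gapdh, Pgk1, Ldha, Eno1, Tpi1, Pgam1 and Aldoa have near-identical pseudogene copies, so that their counts are uncertain. The symbol Aldoa has 2 rows, of which ENSMUSG00000030695 was used. Scripts were tested on simulated counts. Alternatives were DESeq2 1.42.0, its size factors, no low-count filter with the scaling factors taken anew or kept, scaling over 24 libraries, the compared libraries alone, the replicate number as a block, deep libraries thinned, single libraries left out, and the crossed libraries left out. Scaling over 24 libraries and keeping the factors were added after seeing the data. Marker lists are given where the groups did not overlap, crossed libraries left out, with medians at least 2 times apart (values from 5 times) and 1 median of at least 20 CPM, and others by choice.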

Additional observations from a re-analysis of the deposited data

Results flagged for a closer look

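The tests of the difference of the cisplatin effect between the TDLN and the LN passed for 16 members in MSM (40.7% of all genes passed) and 10 in SSM (21.6%), and among dendritic cells for 8 in mDC (15.6%) and 4 in rDC (5.31%). The results listed here stand out because that difference was tested and passed. In MSM, Hk3 (adjusted p = 3.33e-06), Bnip3 (adjusted p = 1.28e-05) and Ankrd37 (adjusted p = 0.00944) differed, in a comparison that holds the MSM LN cisplatin libraries with few macrophage markers and 2 crossed libraries. In SSM, Ldhb (adjusted p = 0.00277), Hk1 (adjusted p = 0.0122) and Ankrd37 (adjusted p = 0.0439) differed, with 2 crossed libraries in the fit. Hk1 had 72.8, 64.0 and 158 CPM with cisplatin, against 179, 208 and 183 CPM with PBS in the TDLN, and 150.4, 162 and 161 CPM with cisplatin, against 90.7, 93.1 and 85.0 CPM with PBS in the LN. In mDC, Gapdh (adjusted p = 1.82e-08), Vegfa (adjusted p = 2.69e-05) and Slc2a3 (adjusted p = 0.00869) differed. Slc2a3 had 28.3, 19.96 and 22.8 CPM with cisplatin, against 35.5, 36.0 and 36.1 CPM with PBS in the TDLN, and 38.4, 31.2 and 42.6 CPM with cisplatin, against 27.9, 38.6 and 31.2 CPM with PBS in the LN. In rDC, Hk3 (adjusted p = 0.0153), Pfkfb3 (adjusted p = 0.017) and Vegfa (adjusted p = 0.0236) differed. Vegfa had 39.1, 54.7 and 35.3 CPM with cisplatin, against 26.2, 28.7 and 34.2 CPM with PBS in the TDLN, and 29.4, 31.9 and 34.1 CPM with cisplatin, against 42.6, 41.1 and 37.6 CPM with PBS in the LN. Groups of 3 libraries are too small for a test of single outlying libraries. The causes of these differences were not tested.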

How the results depend on the processing

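Of 238 values of named members, 237 kept direction and call under DESeq2 and 236 with its size factors, 204 with no low-count filter and the scaling taken anew from the unfiltered genes, 223 with no filter and the factors kept, 218 with the replicate block, 185 of 210 with the compared libraries fitted alone, 129 of 132 with the deep libraries thinned and 106 of 106 without the crossed libraries. Leaving out single libraries kept 1538 of 1788. With unfiltered scaling 4 values changed sign, namely Pkm for cisplatin in mDC TDLN (-0.0615, adjusted p = 0.521), Pfkp for the node in mDC PBS (0.0307, adjusted p = 0.855) and Tpi1 (-0.0136) and Aldoa (-0.122) for mDC against rDC in LN PBS, and none did with no filter and the factors kept. Unfiltered scaling moved the median of all genes by over 0.1 in 9 comparisons (-0.43 to 0.35), and scaling over 24 libraries did so in 3 (-0.16 to 0.16). Unfiltered scaling called 16 members for cisplatin in rDC LN (15.3% of all genes), against 8 with no filter and the factors kept (10.7%). Without the crossed libraries the cisplatin counts were 29 in MSM TDLN, 31 in MSM LN, 24 in SSM TDLN and 30 in SSM LN, and the node counts 28 in MSM with cisplatin, 26 in MSM with PBS, 30 in SSM with cisplatin and 21 in SSM with PBS. The node differences then numbered 25 in MSM and 26 in SSM, and members called between MSM and SSM 28, 28, 31 and 28 in TDLN cisplatin, TDLN PBS, LN cisplatin and LN PBS. The labels state no pairing of the replicate numbers. With the replicate block the counts were 5 for cisplatin in SSM TDLN (14.7% of all genes) and 4 for the node in SSM PBS (12.5%). They were 6 for the node difference in SSM (14.1%) and 3 for the node in rDC cisplatin (12%). The compared libraries alone gave 1 for cisplatin in SSM TDLN (17.7% of all genes). For the node they gave 8 in SSM cisplatin (16%), 1 in rDC cisplatin (8.09%) and 16 in rDC PBS (39%). Between MSM and SSM they gave 29 in TDLN PBS (76.3%) and 32 in LN cisplatin (83.7%). Leaving out 1 library gave, for cisplatin, 9 to 19 in MSM TDLN, 11 to 22 in MSM LN, 1 to 14 in SSM TDLN, 6 to 15 in SSM LN, 7 to 11 in mDC TDLN, 4 to 5 in mDC LN, 0 to 1 in rDC TDLN and 4 to 6 in rDC LN. For the node it gave 9 to 20 in MSM with cisplatin, 12 to 18 in MSM with PBS, 7 to 24 in SSM with cisplatin, 1 to 8 in SSM with PBS, 4 to 7 in mDC with cisplatin, 10 to 17 in mDC with PBS, 2 to 8 in rDC with cisplatin and 4 to 6 in rDC with PBS. The node differences ranged over 12 to 17 in MSM, 6 to 17 in SSM, 6 to 9 in mDC and 1 to 5 in rDC, and MSM against SSM over 0 to 0, 14 to 15, 14 to 17 and 0 to 1 in the same order of conditions. The causes of these shifts were not tested. Pfkm, Egln3 and Ankrd37 were low in the dendritic cells, with medians of 1.75, 0.929 and 1.29 CPM in mDC and 4.94, 2.75 and 6.04 CPM in rDC. The part of depth in their calls was not tested.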

Other observations

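Genes of related pathways outside the set were tested in the same fits. In mDC of the TDLN, cisplatin gave 2 higher and 1 lower of 19 of the TCA cycle genes and 1 higher and 3 lower of 21 of the further glycolysis genes, while 27.3% of all genes passed. In SSM of the LN, cisplatin gave 4 higher and 1 lower of 26 of the further glycolysis genes, 1 higher and 2 lower of 37 of the further hypoxia genes, 1 higher and 0 lower of 19 of the TCA cycle genes and 1 higher and 0 lower of 7 of the pentose phosphate genes, while 13.3% of all genes passed.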
